A study of Homo sapiens with 70 samples.

Results

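The 10 genes described here are ERK-induced transcripts that mostly act back on the pathway that induces them. They were taken by gene name from the table of expected counts, and all 10 were found among its 78932 genes: the MAP kinase phosphatases DUSP4, DUSP5 and DUSP6, the Sprouty genes SPRY1, SPRY2 and SPRY4, SPRED1, ERRFI1, and the ETS transcription factors ETV4 and ETV5. All 10 passed the filter on low counts at every collection time, when 15623 to 16809 genes were tested.

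Every library came from MIA PaCa-2, a human pancreatic ductal adenocarcinoma (PDAC) line, in a derivative made resistant to the drug sotorasib that carries an inducible dCas9-KRAB repressor. The cells held 1 of 3 guide RNAs: the guides against ZBTB11 labelled sgZBTB11 #1 and sgZBTB11 #2, written sgZBTB11-1 and sgZBTB11-2 here, or the control guide sgNS. Each line received doxycycline (DOX), which induces the repressor, or the solvent DMSO, and was collected at 5 hr and at days 1, 3 and 5. The 70 polyA RNA libraries fell into 24 groups of 3, except that the groups of DMSO-treated sgZBTB11-1 cells at day 5 and DMSO-treated sgNS cells at day 1 held 2 each. Whether a line is 1 clone or a pool, and whether sotorasib was in the medium, is not given in the sources used here. The sources do not say whether replicate libraries were separate cultures, and p-values therefore cover only their spread, which could be technical.

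In the RAS-ERK pathway, growth factor receptors switch on RAS, which drives RAF, MEK and then ERK, and ERK induces a small set of genes that damp the signal at several levels. DUSP6 is a cytoplasmic phosphatase that removes the activating phosphates from ERK, while DUSP4 and DUSP5 are nuclear phosphatases of the same family. Sprouty proteins interrupt signalling between receptors and RAF, SPRED1 brings the RAS GTPase-activating protein neurofibromin (encoded by NF1) to the membrane, and ERRFI1 binds and inhibits EGFR and its relatives. ETV4 and ETV5 are the transcription factors of the set, carry ERK output into gene expression, and are commonly read with DUSP6 and SPRY4 as markers of MAPK output in tumours.

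The RefSeq promoter table held 6 of the 10 genes. The 250 bases before the start of DUSP6, SPRY1 and SPRY2 are shown as examples. These transcripts climbed between day 1 and day 3 of culture, as described further on. SPRY4 climbed as well, and its window is counted below but not shown. That window, chr5:142324248-142324497 on the minus strand, lies inside the annotated SPRY4 gene (142310430-142325021), not before its outermost start. Capitals mark GGAA, the core recognised by ETS factors such as ETV4 and ETV5, or TTCC, the same core on the other strand, and in SPRY2 also the CC that comes before a GGAA.
DUSP6, chr12:89352502-89352751, minus strand, GRCh38.p14: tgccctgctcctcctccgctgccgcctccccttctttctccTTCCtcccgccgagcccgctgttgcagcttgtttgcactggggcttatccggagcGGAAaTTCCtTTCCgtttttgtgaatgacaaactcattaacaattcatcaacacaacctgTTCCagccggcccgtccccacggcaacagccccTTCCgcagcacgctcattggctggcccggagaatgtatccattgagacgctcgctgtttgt
SPRY1, chr4:123396545-123396794, plus strand, GRCh38.p14: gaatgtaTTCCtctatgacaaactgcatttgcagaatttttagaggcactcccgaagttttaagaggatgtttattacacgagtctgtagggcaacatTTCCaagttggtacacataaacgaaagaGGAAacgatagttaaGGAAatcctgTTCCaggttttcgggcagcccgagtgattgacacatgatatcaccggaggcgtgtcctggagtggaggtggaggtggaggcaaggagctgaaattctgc
SPRY2, chr13:80341127-80341376, minus strand, GRCh38.p14: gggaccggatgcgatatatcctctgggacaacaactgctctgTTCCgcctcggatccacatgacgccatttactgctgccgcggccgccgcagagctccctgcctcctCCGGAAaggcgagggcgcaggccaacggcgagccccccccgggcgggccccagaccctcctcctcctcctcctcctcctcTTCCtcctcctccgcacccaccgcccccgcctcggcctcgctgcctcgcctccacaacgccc
Read on both strands, GGAA occurred 6 times in the DUSP6 window, 5 times in SPRY1, 3 times in SPRY2 and 2 times in SPRY4. Of the 6 promoters 5 held it, as did 92.7% of all 35114 promoters of that length. The longer ETS motif CCGGAA, which overlaps GGAA, was in SPRY2 alone of the 6, against 14.5% of all promoters. The other ETS form GGAAGT, the AP-1 motif TGANTCA, the CRE motif TGACGTCA and the CArG box were in none of the 6, against 19.5%, 6.57%, 1.65% and 1.16% of all promoters. These are matches of letters in 1 window per gene and say nothing of binding.

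Levels of the 10 transcripts spanned a wide range. Compared per length, the median over all 70 libraries was 190 TPM (transcripts-per-million) for ERRFI1, 105 TPM for SPRY2, 84.2 TPM for DUSP6 and 71.9 TPM for SPRY4. SPRY1, ETV5 and ETV4 formed a middle group whose medians were 22, 20.9 and 20.6 TPM, and whose ranges over libraries overlapped. DUSP5 had a median of 4.38 TPM and SPRED1 of 1.98 TPM, and DUSP4 was lowest at 0.28 TPM. DUSP4 had only 13 to 49 counts per library, so a DOX change of DUSP4 carried a standard error of 0.21 to 0.32 on the log2 scale.

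**Figure D1:**
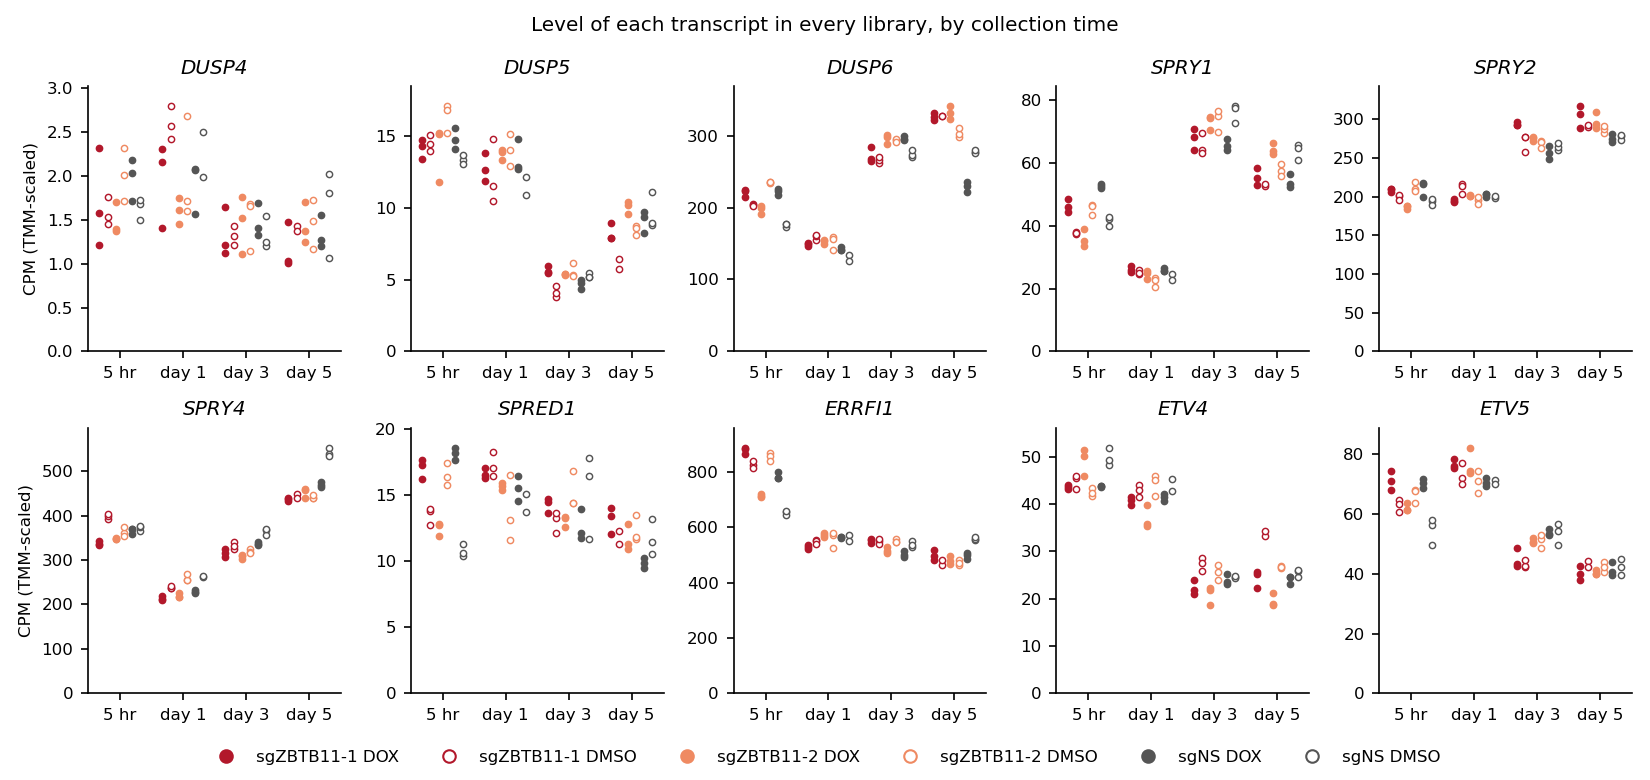
Level of each of the 10 transcripts in every library, in TMM-scaled counts-per-million (CPM, vertical axes from 0), against collection time. Each point is 1 library, coloured by guide, filled for DOX and open for DMSO. SPRY1, DUSP6 and SPRY4 dip at day 1 and are higher at day 3, whereas DUSP5, ETV4 and ETV5 are lower at days 3 and 5 than at 5 hr and day 1.

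Library totals were 12068833 to 20627648 expected counts. The targeted gene ZBTB11 averaged 36.3 ± 1.8 CPM with DOX (n = 3) and 48.7 ± 2.5 CPM with DMSO (n = 2) in sgZBTB11-1 cells at day 5. It averaged 28.4 ± 0.4 CPM with DOX and 52.8 ± 1.3 CPM with DMSO in sgZBTB11-2 cells, and 50.8 ± 3.4 CPM with DOX and 56.2 ± 4.6 CPM with DMSO in sgNS cells (SD, n = 3 each). Keratins KRT8 and KRT18 had medians of 993 and 1565 TPM and VIM of 3332 TPM, while the epithelial markers EPCAM and CDH1 were at or near 0. PTPRC, CD3E, PECAM1, INS and PRSS1 did not exceed 0.19 TPM in any library, and CELA3A, CHGA and GCG did not exceed 0.08 TPM. The other-cell markers with more were CDH5 (endothelial), COL3A1 and COL1A1 (fibroblast) and CD68 (leukocyte), with medians of 5.80, 5.73, 0.35 and 1.05 TPM, and the acinar CPA1 and fibroblast DCN, which reached 0.70 and 0.30 TPM. Of the 4 collection times, DOX moved the largest share of genes at 5 hr in each line. It moved 40.9% of tested genes in sgNS, 32.8% in sgZBTB11-1 and 17% in sgZBTB11-2 cells. In sgNS cells it moved 0.877% at day 3 and 17.3% at day 5. Genes were split into 4 equal bins by length. The median log2 change at 5 hr in the longest and shortest bin was 0.18 and -0.17 in sgNS cells. It was 0.12 and -0.11 in sgZBTB11-1, and -0.04 and 0.03 in sgZBTB11-2 cells. At day 5 it was -0.06 and 0.06 in sgNS cells. For the mean of both ZBTB11 guides minus sgNS it was then 0.09 and -0.09. Results of DOX at 5 hr are given after those of days 1, 3 and 5, with values for SPRED1, DUSP6, SPRY4 and ERRFI1 after removal of the length trend.

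ETV4 was lower with DOX than with DMSO in both ZBTB11-guide lines at days 3 and 5. At day 5 the 3 DOX libraries of sgZBTB11-1 had 25.6, 22.3 and 25.3 CPM of ETV4, against 33.2 and 34.2 CPM in the 2 DMSO libraries. The sgZBTB11-2 line had 21.3, 18.6 and 18.8 CPM with DOX, against 26.4, 26.9 and 26.6 CPM with DMSO. In both lines the DOX libraries lay below those with DMSO, without overlap. The sgNS line had 24.5, 23.1 and 24.6 CPM with DOX, against 24.6, 25.9 and 26.1 CPM with DMSO, so the groups touched but did not separate clearly.

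By edgeR's quasi-likelihood test with Benjamini-Hochberg adjustment over all genes tested, used for every adjusted p that names no other tool, ETV4 fell at day 5 by 0.46 ± 0.07 on the log2 scale in sgZBTB11-1 cells (SE, adjusted p = 5.3e-05). It fell by 0.44 ± 0.07 in sgZBTB11-2 cells (adjusted p = 2.1e-06), and the change in sgNS cells was -0.09 ± 0.06 (adjusted p = 0.40). The net change, which is the mean of the changes of both ZBTB11 guides minus that of sgNS, was -0.36 ± 0.08 (adjusted p = 0.00064). The difference between the changes of both ZBTB11 guides was 0.01 ± 0.10. In bulk RNA, fewer cells with a transcript and less of it per cell cannot be told apart.

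With limma on log2(TPM + 1) the net change of ETV4 at day 5 was -0.03 (adjusted p = 0.83), on a scale where the median of all genes was 0.19, and the change in sgZBTB11-1 cells was -0.34 (adjusted p = 0.19). The DMSO level of ETV4 in sgZBTB11-1 cells at day 5 was itself 0.38 ± 0.07 above that of sgNS on the log2 scale (adjusted p = 1.4e-05), and these DMSO libraries enter the DOX comparison as well. With DOX the sgZBTB11-1 libraries, at 22.3 to 25.6 CPM, overlapped those of sgNS, at 23.1 to 24.6 CPM, and the sgZBTB11-2 libraries, at 18.6 to 21.3 CPM, lay below both.

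**Figure D2:**
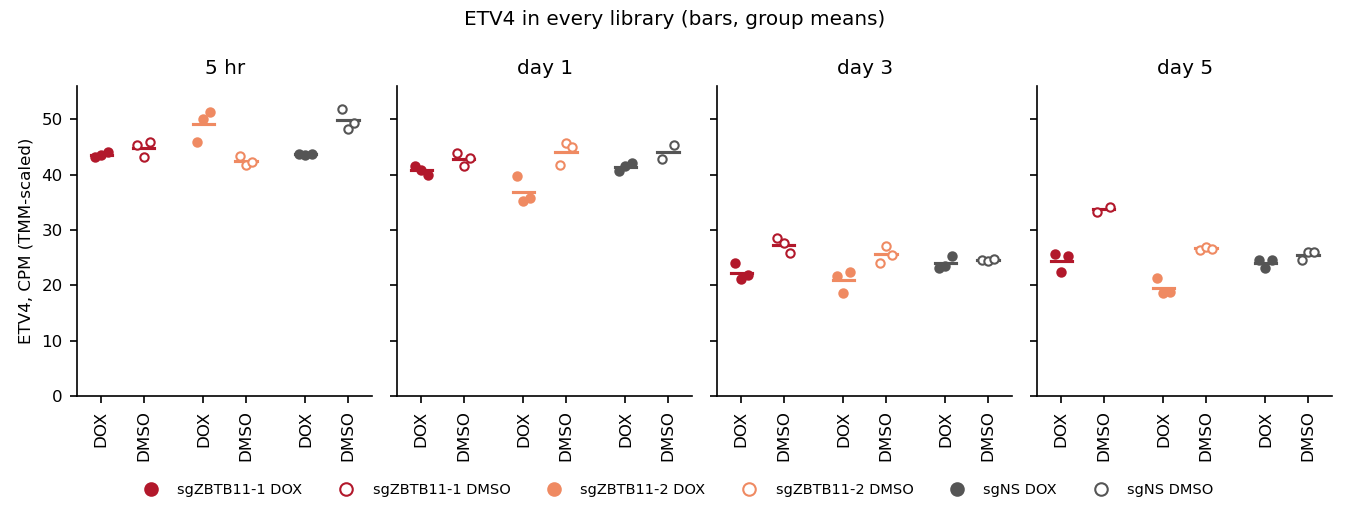
ETV4 in TMM-scaled CPM (vertical axis from 0) in every library at each collection time, with DOX beside DMSO for each guide. Points are libraries and bars are group means. At day 5 the DOX libraries of both ZBTB11 guides lie below their DMSO libraries, by 0.46 and 0.44 on the log2 scale.

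At day 3 ETV4 had 23.98, 21.1 and 21.8 CPM with DOX in sgZBTB11-1 cells, against 28.6, 27.6 and 25.8 CPM with DMSO. It had 21.8, 18.6 and 22.3 CPM with DOX in sgZBTB11-2 cells, against 24.01, 27.2 and 25.5 CPM with DMSO. The DOX libraries were again below the DMSO libraries in both lines, without overlap. The changes were -0.30 ± 0.07 (adjusted p = 0.029) and -0.29 ± 0.07 (adjusted p = 0.012), against -0.04 ± 0.07 in sgNS cells, and the net change of -0.26 ± 0.08 did not pass the test (adjusted p = 0.20). Both calls were lost with DESeq2 (adjusted p = 0.15 and 0.10) and with limma on log2(TPM + 1). In sgZBTB11-1 cells the call was lost without DMSO replicate 1 or 2 or DOX replicate 2 or 3 (adjusted p = 0.13 to 0.17), and in sgZBTB11-2 cells without DMSO replicate 2 or 3 or DOX replicate 2 (adjusted p = 0.055 to 0.16).

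ETV5, the close relative of ETV4, did not follow it. At day 5 ETV5 had 40.1, 37.9 and 42.5 CPM with DOX in sgZBTB11-1 cells, against 44.3 and 42.2 CPM with DMSO. It had 41.3, 39.995 and 39.8 CPM with DOX in sgZBTB11-2 cells, against 40.7, 44.1 and 42.1 CPM with DMSO. The DOX changes of ETV5 at day 5 were -0.10 ± 0.06 and -0.07 ± 0.05, and did not pass the test (adjusted p = 0.57 and 0.55). The difference between ETV4 and ETV5 was not itself tested.

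At day 5 the feedback inhibitors DUSP6, SPRY1, SPRY4 and ERRFI1 were lower with DOX in the sgNS line. DUSP6 had 235, 222 and 230 CPM with DOX in sgNS cells, against 277, 276 and 280 CPM with DMSO. SPRY4 had 468, 476 and 465 CPM with DOX, against 553, 537 and 534 CPM with DMSO. SPRY1 had 52.2, 53.3 and 56.3 CPM with DOX, against 61.1, 65.9 and 64.9 CPM with DMSO. For each of these transcripts the DOX and DMSO libraries of sgNS did not overlap. DUSP6 fell by 0.28 ± 0.03, SPRY1 by 0.25 ± 0.04, SPRY4 by 0.21 ± 0.02 and ERRFI1 by 0.17 ± 0.03 on the log2 scale (adjusted p = 1.5e-11, 2.5e-05, 2.5e-09 and 2.0e-06). These 4 were the members called in sgNS at day 5, where 17.3% of all tested genes were called. SPRY2 averaged 276 CPM with DOX and 277 CPM with DMSO in sgNS cells, and DUSP5 9.13 and 9.62 CPM. DUSP4 averaged 1.35 and 1.63 CPM, and the libraries of SPRY2, DUSP5 and DUSP4 overlapped. SPRED1 averaged 9.87 and 11.7 CPM, without overlap, and did not pass the test.

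No decrease of DUSP6, SPRY1, SPRY4 or ERRFI1 passed the test in either ZBTB11-guide line at day 5. SPRY4 in sgZBTB11-1 cells had 433, 437 and 440.03 CPM with DOX, against 448 and 440.08 CPM with DMSO, all DOX libraries below both DMSO libraries, with a change of -0.02 ± 0.03 (adjusted p = 0.88). DUSP6 had 321, 331 and 326 CPM with DOX in sgZBTB11-1 cells at day 5, against 327 and 327 CPM with DMSO. In sgZBTB11-2 cells it had 332, 323 and 342 CPM with DOX, against 298, 303 and 310 CPM with DMSO, with no overlap. Its DOX change was 0.00 ± 0.03 in sgZBTB11-1 cells and 0.13 ± 0.03 in sgZBTB11-2 cells (adjusted p = 0.00063). SPRY1 rose by 0.15 ± 0.04 in sgZBTB11-2 cells (adjusted p = 0.018), a call lost without sgZBTB11-2 DMSO replicate 1 or 3 or DOX replicate 3 (adjusted p = 0.058 to 0.11). The members called at day 5 were thus 1 of 10 in sgZBTB11-1 cells (ETV4, with 1.14% of all genes called) and 3 of 10 in sgZBTB11-2 cells (DUSP6, SPRY1 and ETV4, with 9% of all genes called).

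Net of sgNS, 6 of the 10 members passed the test at day 5, with 19.2% of all tested genes called. The net change was 0.35 ± 0.03 for DUSP6 (adjusted p = 1.1e-11), 0.37 ± 0.06 for SPRY1 (1.3e-06), 0.22 ± 0.03 for SPRY4 (2.2e-07) and 0.22 ± 0.03 for ERRFI1 (1.1e-06). These positive values stood beside a decrease in sgNS: without the sgNS term the mean DOX change of both ZBTB11 guides was 0.06 for DUSP6, 0.12 for SPRY1, 0.01 for SPRY4 (adjusted p = 0.87) and 0.05 for ERRFI1 (adjusted p = 0.16). For ETV4 the same mean was -0.45, against the net -0.36.

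DUSP5, the nuclear ERK phosphatase, had 7.93, 8.95 and 7.93 CPM with DOX in sgZBTB11-1 cells at day 5, against 5.74 and 6.44 CPM with DMSO, without overlap. In sgZBTB11-2 cells it had 10.4, 10.2 and 9.58 CPM with DOX, against 8.09, 8.77 and 8.62 CPM with DMSO, again without overlap. Within neither line did DUSP5 pass the test (log2 changes of 0.44 ± 0.13 and 0.24 ± 0.11, adjusted p = 0.087 and 0.16), while its net change was 0.42 ± 0.13 (adjusted p = 0.020). That call was lost with DESeq2 (adjusted p = 0.098) and when replicate 1 of sgZBTB11-1 DMSO, of sgNS DMSO or of sgNS DOX was left out (adjusted p = 0.062 to 0.12). SPRY2, SPRED1, ETV5 and DUSP4 had net changes of 0.08, 0.29, -0.03 and 0.09 that did not pass.

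**Figure D3:**
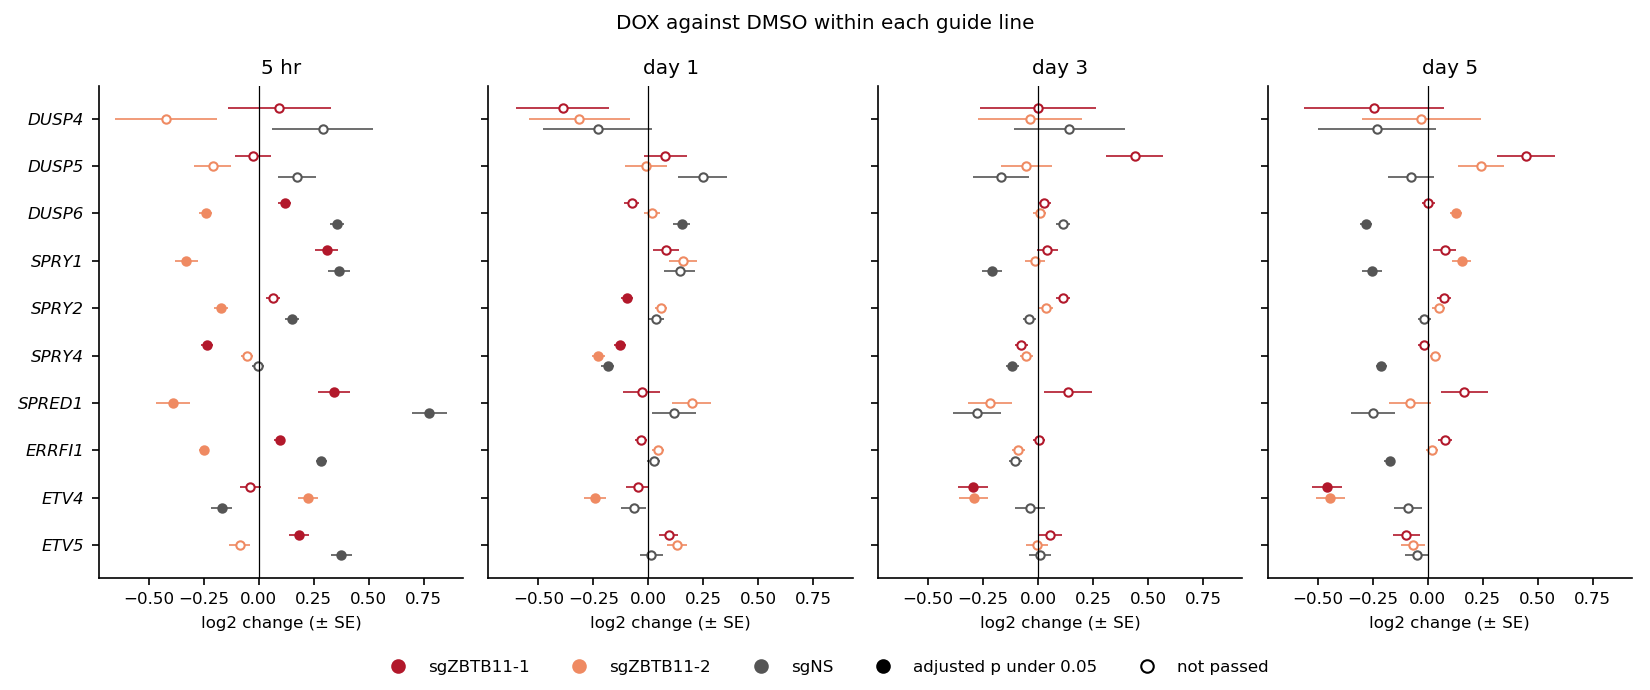
Log2 change of each transcript with DOX against DMSO (horizontal axes, ± SE) at each collection time, coloured by guide, with filled points past an adjusted p of 0.05. At day 5 ETV4 lies at -0.46 and -0.44 for the ZBTB11 guides, and DUSP6, SPRY1, SPRY4 and ERRFI1 lie below 0 past the threshold for sgNS. At 5 hr sgNS and sgZBTB11-2 lie on opposite sides of 0 for DUSP6, SPRY1, SPRY2, SPRED1 and ERRFI1.

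At day 1 the shared change was a decrease of SPRY4, a Sprouty inhibitor of receptor signalling. SPRY4 had 220, 213 and 211 CPM with DOX in sgZBTB11-1 cells, against 236, 237 and 241 CPM with DMSO. It had 216, 217 and 226 CPM with DOX in sgZBTB11-2 cells, against 256, 256 and 268 CPM with DMSO. It had 227, 225 and 234 CPM with DOX in sgNS cells, against 262 and 265 CPM with DMSO. In all 3 lines the DOX libraries were below the DMSO libraries without overlap.

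The log2 changes of SPRY4 at day 1 were -0.13 ± 0.03, -0.23 ± 0.03 and -0.19 ± 0.03 in sgZBTB11-1, sgZBTB11-2 and sgNS cells (adjusted p = 0.0031, 5.6e-07 and 0.00025), and its net change was 0.01 ± 0.04. With limma on log2(TPM + 1) the change in sgZBTB11-1 was -0.07 (adjusted p = 0.30) and in sgNS -0.10 (adjusted p = 0.24). The members called at day 1 were 2 of 10 in each line, with 4.84% of all genes called in sgZBTB11-1, 7.88% in sgZBTB11-2 and 2.19% in sgNS cells. Beside SPRY4 these were SPRY2 in sgZBTB11-1 (-0.10 ± 0.03, adjusted p = 0.033), ETV4 in sgZBTB11-2 (-0.24 ± 0.05, adjusted p = 0.0021) and DUSP6 in sgNS (0.15 ± 0.04, adjusted p = 0.039).

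ETV4 at day 1 had 39.7, 35.3 and 35.8 CPM with DOX in sgZBTB11-2 cells, against 41.7, 45.8 and 45.05 CPM with DMSO, and the groups did not overlap. In sgZBTB11-1 cells its change was -0.05 ± 0.05 and in sgNS cells -0.07 ± 0.06. The SPRY2 call was lost without any 1 of 5 of the 6 sgZBTB11-1 libraries, all but DMSO replicate 1 (adjusted p = 0.067 to 0.19), with DESeq2 (adjusted p = 0.088), without the low-count filter (adjusted p = 0.067) and with limma on log2(TPM + 1) (adjusted p = 0.40). The DUSP6 call was lost without any 1 of the 5 sgNS libraries (adjusted p = 0.053 to 0.53), with DESeq2 (adjusted p = 0.16), with limma on log2(TPM + 1) (adjusted p = 0.41) and with the replicate block (adjusted p = 0.054). ETV4 in sgZBTB11-2 had an adjusted p of 0.056 with limma on log2(TPM + 1).

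At day 3 the members called were 1 of 10 in each ZBTB11-guide line, ETV4, where 0.733% of all genes were called in sgZBTB11-1 and 1.17% in sgZBTB11-2 cells. In sgNS cells 2 of 10 were called, with 0.877% of all genes. SPRY1 had 67.8, 65.6 and 64.1 CPM with DOX in sgNS cells, against 72.8, 78.3 and 77.5 CPM with DMSO, a change of -0.21 ± 0.05 without overlap (adjusted p = 0.013). SPRY4 had 335, 341 and 333 CPM with DOX, against 367, 357 and 370 CPM with DMSO, a change of -0.12 ± 0.03 (adjusted p = 0.041).

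These sgNS calls at day 3 were close to the threshold. The SPRY1 call was lost without sgNS DMSO replicate 2 or 3 or DOX replicate 2 or 3 (adjusted p = 0.067 to 0.10), and the SPRY4 call without any 1 of the 6 sgNS libraries or sgZBTB11-2 DMSO replicate 2 (adjusted p = 0.051 to 0.17). The SPRY4 call was also lost with the replicate block (adjusted p = 0.050, just above the threshold), without the low-count filter (0.070) and with the length trend removed (0.092). Net of sgNS, 0 of 10 members were called at day 1, where 0.0737% of all genes were called, and 0 of 10 at day 3, where 0.493% were. By edgeR, 1 member at day 1 and 5 at day 3 had an unadjusted p under 0.05, and DESeq2 and limma on log2(TPM + 1) each called 0 at both times. The changes of both ZBTB11 guides were not told apart at days 1, 3 and 5, where edgeR called 0 members (0.0614%, 0.0180% and 2.58% of all genes), 3, 3 and 1 had an unadjusted p under 0.05, and DESeq2 and limma called 0 each time.

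At 5 hr DUSP6, SPRY1, SPRED1 and ERRFI1 were higher with DOX in sgZBTB11-1 and sgNS cells and lower with DOX in sgZBTB11-2 cells. DUSP6 had 214, 224 and 222 CPM with DOX in sgZBTB11-1 cells, against 205, 204 and 202 CPM with DMSO. It had 202, 199 and 190 CPM with DOX in sgZBTB11-2 cells, against 235, 234 and 235 CPM with DMSO. It had 217, 223 and 225 CPM with DOX in sgNS cells, against 173, 178 and 177 CPM with DMSO. No line overlapped between DOX and DMSO, and the DOX libraries were higher in sgZBTB11-1 and sgNS and lower in sgZBTB11-2. ZBTB11 itself averaged 55.3 ± 0.4 CPM with DOX and 55.5 ± 2.7 CPM with DMSO in sgZBTB11-1 cells at this time, and 48.7 ± 0.7 and 55.3 ± 1.3 CPM in sgZBTB11-2 cells (SD, n = 3 each).

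In sgZBTB11-1 cells at 5 hr 6 of 10 members were called (32.8% of all genes): SPRED1, SPRY1, ETV5, DUSP6 and ERRFI1 rose by 0.34, 0.31, 0.18, 0.12 and 0.09 on the log2 scale, and SPRY4 fell by 0.24. In sgZBTB11-2 cells 6 of 10 were called (17% of all genes): SPRED1, SPRY1, ERRFI1, DUSP6 and SPRY2 fell by 0.39, 0.33, 0.25, 0.24 and 0.17, and ETV4 rose by 0.22. In sgNS cells 7 of 10 members were called, 6 of them higher with DOX, where 40.9% of all genes were called. SPRED1 rose by 0.78 ± 0.08, ETV5 by 0.37 ± 0.05, SPRY1 by 0.36 ± 0.05, DUSP6 by 0.36 ± 0.03, ERRFI1 by 0.28 ± 0.02 and SPRY2 by 0.15 ± 0.03 on the log2 scale, and ETV4 fell by 0.17 ± 0.05. ETV4 was called in the sgZBTB11-2 and sgNS lines, in each against the direction of the called inhibitors.

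SPRED1 had the largest of these values. It had 16.2, 17.3 and 17.6 CPM with DOX in sgZBTB11-1 cells, against 13.8, 13.9 and 12.8 CPM with DMSO. It had 11.9, 12.7 and 12.8 CPM with DOX in sgZBTB11-2 cells, against 17.5, 16.4 and 15.8 CPM with DMSO. It had 17.7, 18.6 and 18.2 CPM with DOX in sgNS cells, against 11.3, 10.4 and 10.6 CPM with DMSO. No line overlapped. The SPRED1 transcript stood at the 97.2nd percentile of length among tested genes, SPRY4 at the 89.3rd and SPRY1 at the 53.4th.

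With the length trend removed, SPRED1 at 5 hr stood at 0.21 in the sgZBTB11-1 line, at -0.34 in the sgZBTB11-2 line and at 0.56 in sgNS cells, and those of DUSP6 were 0.10, -0.24 and 0.31, all with an adjusted p under 0.05. SPRY4 then differed: its change in sgNS was -0.17, against -0.0049 before, and its net change 0.0034 (adjusted p = 0.96), against -0.14 ± 0.03. ERRFI1 in sgZBTB11-1 no longer passed (0.06, adjusted p = 0.062). With limma on log2(TPM + 1) ETV4 in sgNS stood at 0.08 (adjusted p = 0.24) and SPRED1 in sgZBTB11-2 at -0.18 (adjusted p = 0.17). The part of transcript length in these values was not tested beyond this.

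Net changes of both guides share the sgNS libraries. The net change at 5 hr passed the test for 9 of 10 members, with 30% of all genes called, and the difference between the changes of sgZBTB11-2 and sgZBTB11-1 passed for 8 of 10, with 35.1% of all genes called. The net change was -0.80 ± 0.09 for SPRED1 and -0.42 ± 0.04 for DUSP6, where the changes of the ZBTB11 guides had opposite signs: without the sgNS term the mean change of both ZBTB11 guides was -0.03 for SPRED1 (adjusted p = 0.85) and -0.06 for DUSP6 (adjusted p = 0.059). The net call of DUSP5 (-0.29 ± 0.10, adjusted p = 0.029) was lost with DESeq2 (adjusted p = 0.13) and when replicate 1 of sgZBTB11-2 DOX, replicate 1 or 2 of sgNS DMSO or replicate 3 of sgNS DOX was left out (adjusted p = 0.054 to 0.092). On log2(TPM + 1) the net changes of ETV4 and ETV5 did not pass with limma (0.07 and -0.16, adjusted p = 0.51 and 0.13), nor did the ETV4 difference between the guides (0.13, adjusted p = 0.24). Without the sgNS term 2 of the 9 net calls were left, ERRFI1 (-0.08) and SPRY4 (-0.14). Counting days 1, 3 and 5 alone, 18 of the 37 DOX calls of members, 6 of the 15 net calls and 0 of the 8 calls between the guides were left.

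The lines already differed with DMSO alone, and these comparisons share the DMSO libraries with the DOX comparisons above. At day 5 SPRY4 had 448 and 440 CPM in DMSO-treated sgZBTB11-1 cells and 439, 439 and 446 CPM in DMSO-treated sgZBTB11-2 cells, against 553, 537 and 534 CPM in DMSO-treated sgNS cells. ERRFI1 had 465 and 484 CPM in sgZBTB11-1 and 466, 483 and 473 CPM in sgZBTB11-2 cells, against 556, 559 and 565 CPM in sgNS cells. Neither ZBTB11-guide line overlapped sgNS for these inhibitors, and sgNS was the higher.

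At day 5 SPRY4 was lower by 0.30 ± 0.03 in sgZBTB11-1 and by 0.31 ± 0.02 in sgZBTB11-2 (adjusted p = 1.8e-12 and 3.2e-14), and ERRFI1 by 0.26 ± 0.03 and 0.25 ± 0.03, each on the log2 scale. SPRY1 was lower by 0.29 ± 0.05 in sgZBTB11-1 and by 0.16 ± 0.04 in sgZBTB11-2 cells. DUSP6 was higher, by 0.22 ± 0.03 and 0.12 ± 0.03, but with limma on log2(TPM + 1) its differences were -0.11 and -0.04, on a scale where the median of all genes was -0.19 and -0.12. DUSP5 was lower by 0.66 ± 0.13 in sgZBTB11-1 cells (adjusted p = 5.6e-05), with 5.74 and 6.44 CPM there, against 11.1, 8.78 and 8.94 CPM in sgNS cells, and did not pass in sgZBTB11-2 (-0.18 ± 0.10). The members called at day 5 were 6 of 10 in sgZBTB11-1 (21.8% of all genes) and 4 of 10 in sgZBTB11-2 cells (18% of all genes).

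**Figure D4:**
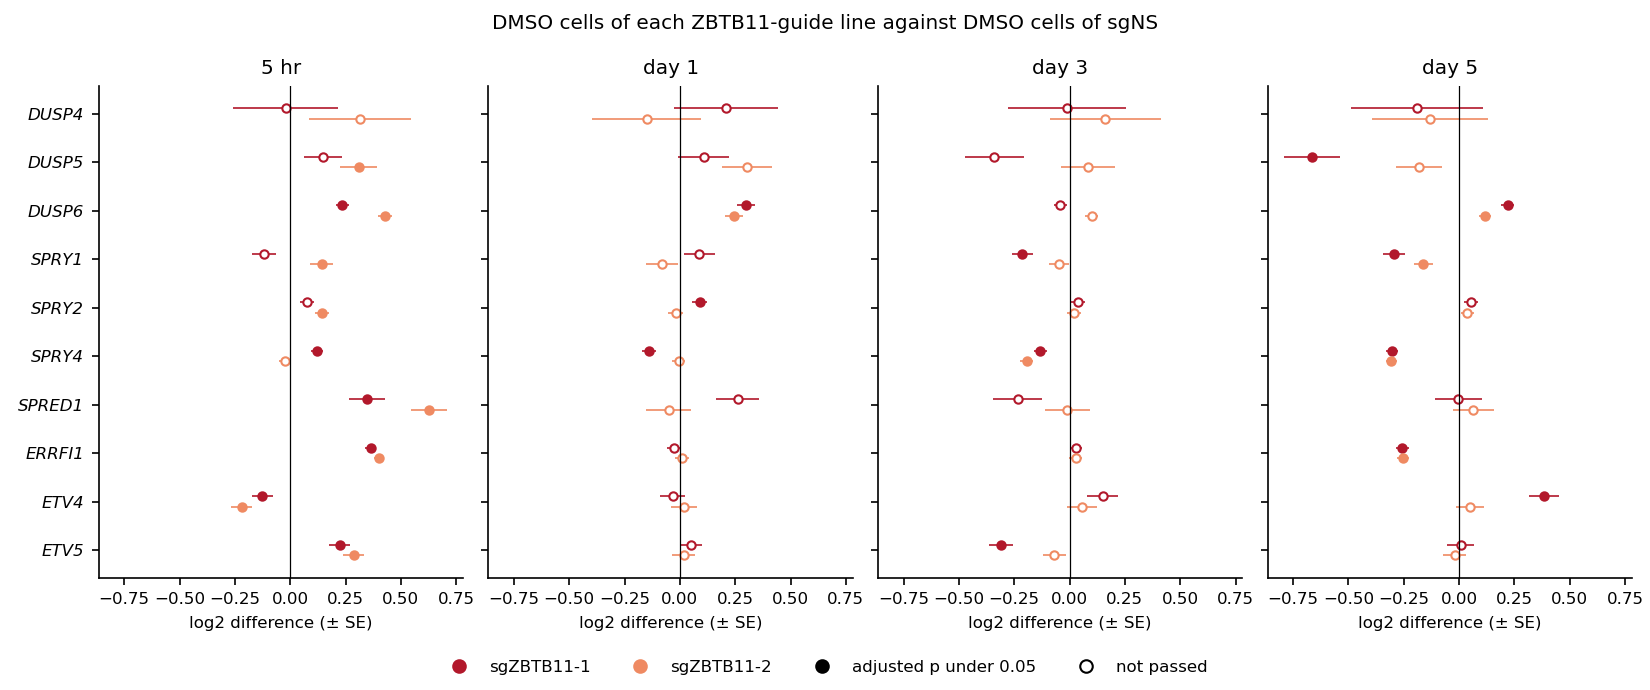
Log2 difference of each transcript between DMSO cells of a ZBTB11-guide line and DMSO cells of sgNS (horizontal axes, ± SE) at each collection time, with filled points past an adjusted p of 0.05. At 5 hr ERRFI1, SPRED1, DUSP6 and ETV5 lie above 0 in both lines, and at day 5 SPRY4, ERRFI1 and SPRY1 lie below 0 in both.

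The baseline differences changed with collection time. ERRFI1 was higher at 5 hr, by 0.36 ± 0.02 in sgZBTB11-1 and 0.40 ± 0.02 in sgZBTB11-2 cells, was within 0.03 of sgNS on the log2 scale at days 1 and 3, and was lower at day 5. DUSP6 was higher than in sgNS in both lines at 5 hr (0.24 ± 0.03 and 0.43 ± 0.03) and at day 1 (0.30 ± 0.04 and 0.24 ± 0.04), and did not pass at day 3. SPRY4 was lower in both lines at day 3, by 0.13 ± 0.03 and 0.19 ± 0.03. ETV5 was lower in sgZBTB11-1 at day 3, by 0.31 ± 0.05 (adjusted p = 4.4e-05), with 42.2, 42.6 and 44.6 CPM there, against 49.6, 54.3 and 56.8 CPM in sgNS cells, without overlap.

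The counts of members called in sgZBTB11-1 and sgZBTB11-2 cells were 6 and 8 of 10 at 5 hr (32% and 32.2% of all genes), 3 and 1 at day 1 (21.2% and 10.7%), and 3 and 1 at day 3 (19.7% and 3.32%). Of these, the ETV4 difference in sgZBTB11-1 at 5 hr (-0.13, adjusted p = 0.036) was lost when replicate 2 of sgZBTB11-1 DMSO or replicate 1 of sgNS DMSO was left out (adjusted p = 0.14 and 0.19). It was kept in 3 of the 7 alternatives. It was lost with DESeq2 (adjusted p = 0.16), without the low-count filter (0.15) and with the length trend removed (0.073), and was 0.02 with limma on log2(TPM + 1). The SPRY1 difference in sgZBTB11-2 at 5 hr (0.14, adjusted p = 0.030) was lost with DESeq2 (adjusted p = 0.12). It was also lost without sgZBTB11-2 DMSO replicate 1 or 2 or sgNS DMSO replicate 2 (adjusted p = 0.10 to 0.16). The SPRY2 difference in sgZBTB11-1 at day 1 (0.09, adjusted p = 0.042) was lost in 5 of the 7 alternatives and when replicate 2 or 3 of sgZBTB11-1 DMSO, replicate 3 of sgZBTB11-2 DMSO or either sgNS library was left out (adjusted p = 0.056 to 0.21). The SPRY4 difference in sgZBTB11-1 at day 1 (-0.14) was 0.06 with limma on log2(TPM + 1), and that at 5 hr (0.12) was 0.06 with the length trend removed (adjusted p = 0.11). With limma on log2(TPM + 1) the 5 hr differences of ETV5 in both lines (adjusted p = 0.43 and 0.068), of ETV4 in sgZBTB11-2 (adjusted p = 0.47) and of ETV4 in sgZBTB11-1 at day 5 (0.05, adjusted p = 0.73) did not pass.

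Members changed in opposite directions with collection time. Neighbouring steps of this comparison share libraries. Over the 9 DOX libraries of a time the median of SPRY1 was 46.1 CPM at 5 hr, 25.6 CPM at day 1, 68.4 CPM at day 3, and 56.3 CPM on the last day. Over the 8 or 9 DMSO libraries its medians were 42.1, 24.04, 72.8 and 58.7 CPM at the same times. At day 3 the lowest library of either treatment, at 63.1 CPM, was above the highest at day 1, at 27.1 CPM. Culture time and the batch of collection or library preparation cannot be told apart here.

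Between day 1 and day 3 SPRY1 rose by 1.44 ± 0.03 on the log2 scale in DOX libraries and by 1.62 ± 0.03 in DMSO libraries, as means over the 3 lines. DUSP6 rose by 0.97 ± 0.02 and 0.94 ± 0.02, SPRY4 by 0.54 ± 0.02 and 0.43 ± 0.02, and SPRY2 by 0.47 ± 0.02 and 0.42 ± 0.02. DUSP5 fell by 1.34 ± 0.06 and 1.32 ± 0.07, ETV4 by 0.82 ± 0.03 and 0.74 ± 0.03, ETV5 by 0.58 ± 0.03 and 0.53 ± 0.03, and DUSP4 by 0.35 ± 0.14 and 0.70 ± 0.14. Cytoplasmic DUSP6 and nuclear DUSP5, which act on the same kinase, thus moved in opposite directions. The members called were 10 of 10 in DOX libraries, with 82.4% of all genes called, and 8 of 10 in DMSO libraries, with 79.8%. All 8 ran the same way in both treatments, which share no library but were collected at the same times. For this and the other steps, the share of all genes called the same way in both treatments was not computed.

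DUSP5 had a median of 5.38 CPM at day 3, against 13.3 CPM at day 1, over the DOX libraries, and of 5.18 CPM at day 3, against 12.5 CPM at day 1, over the DMSO libraries. ETV4 had a median of 22.3 CPM at day 3, against 40.7 CPM at day 1, over the DOX libraries, and of 25.5 CPM at day 3, against 43.5 CPM at day 1, over the DMSO libraries. For both transcripts no library at day 3 reached the lowest at day 1. The DUSP4 decrease in DOX libraries was lost with DESeq2 (adjusted p = 0.061) and without sgZBTB11-2 DOX day 3 replicate 1 (adjusted p = 0.054).

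Between 5 hr and day 1 SPRY1, SPRY4, DUSP6 and ERRFI1 fell in both treatments. SPRY1 fell by 0.80 ± 0.03 in DOX and 0.80 ± 0.03 in DMSO libraries, SPRY4 by 0.66 ± 0.02 and 0.57 ± 0.02, DUSP6 by 0.53 ± 0.02 and 0.46 ± 0.02, and ERRFI1 by 0.51 ± 0.01 and 0.47 ± 0.02. ETV5 rose by 0.14 ± 0.02 and 0.23 ± 0.03, and SPRY2 stayed within 0.02 of its 5 hr level on the log2 scale without passing the test. The members called were 7 of 10 in DOX libraries (68.5% of all genes) and 8 of 10 in DMSO libraries (67.2% of all genes), of which 6 were called in both, in the same direction.

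Among those calls, DUSP4 rose by 0.40 ± 0.13 in DMSO libraries (adjusted p = 0.0072), and had 0.09 ± 0.14 in DOX libraries. The DUSP4 call was lost without sgNS DMSO day 1 replicate 1 (adjusted p = 0.052) and with the length trend removed (0.29, adjusted p = 0.051). SPRED1 rose by 0.18 ± 0.07 in DMSO libraries (adjusted p = 0.017), which was lost without sgZBTB11-2 or sgNS DMSO day 1 replicate 1 (adjusted p = 0.059 and 0.082) and was 0.04 with the length trend removed. DUSP5 fell by 0.11 ± 0.05 in DOX libraries (adjusted p = 0.041), and the call was lost without any 1 of 11 of the 36 DOX libraries, 6 of 5 hr and 5 of day 1 (adjusted p = 0.051 to 0.12). That call was kept in 3 of the 7 alternatives. It was lost with DESeq2 (adjusted p = 0.080), without the low-count filter (0.11) and in 1 fit of all 70 libraries (0.051). With limma on log2(TPM + 1) the DUSP5 changes were 0.05 in DOX and 0.00 in DMSO libraries.

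Between day 3 and day 5 DUSP5 rose by 0.80 ± 0.06 in DOX libraries and 0.65 ± 0.08 in DMSO libraries, and SPRY4 by 0.51 ± 0.02 and 0.47 ± 0.02. SPRY1 fell by 0.25 ± 0.03 and 0.32 ± 0.03, ETV5 by 0.29 ± 0.03 and 0.21 ± 0.03, SPRED1 by 0.21 ± 0.05 and 0.29 ± 0.07, and ERRFI1 by 0.08 ± 0.01 and 0.14 ± 0.02. The members called were 7 of 10 in DOX libraries (67.8% of all genes) and 9 of 10 in DMSO libraries (65.3% of all genes), and the 7 were called in the same direction in both. On log2(TPM + 1), where the median of all genes was -0.20 in DOX and -0.18 in DMSO libraries, SPRY2 stood at -0.16 and -0.14, against 0.09 and 0.08 from counts. DUSP6 in DMSO libraries stood at -0.33 and ETV4 at -0.16 on that scale, against 0.11 and 0.13 from counts.

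**Figure D5:**
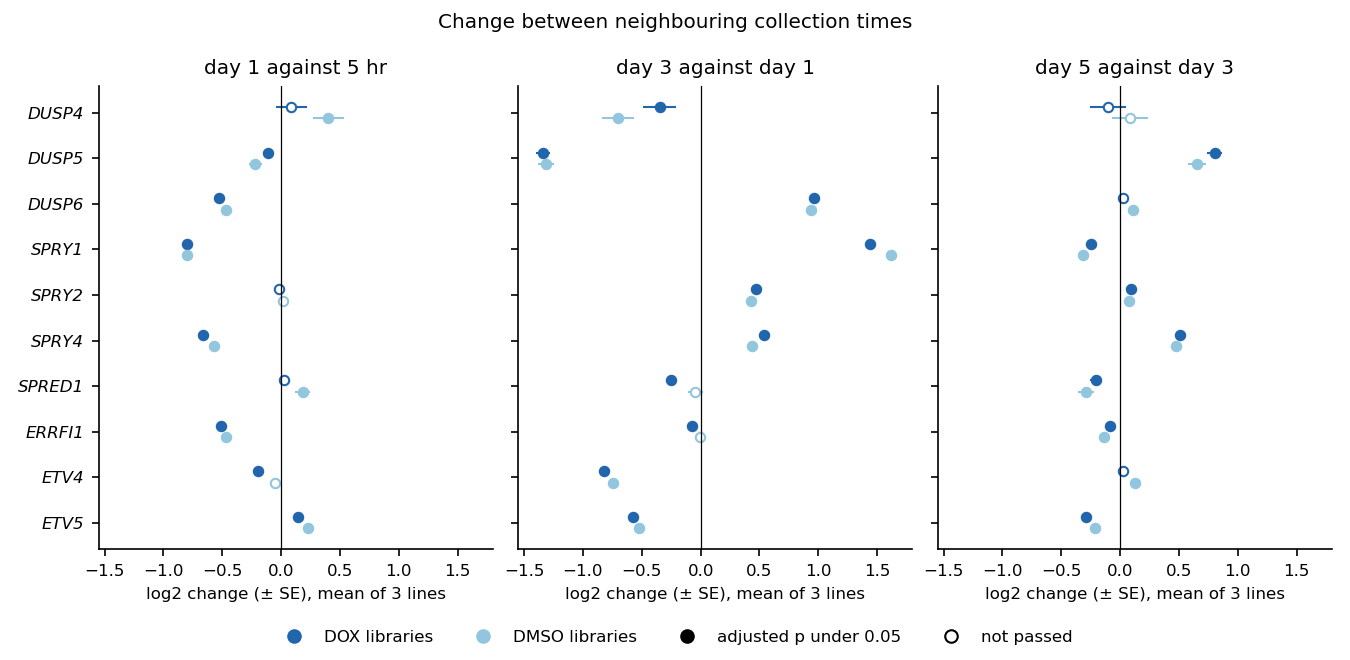
Log2 change of each transcript between neighbouring collection times (horizontal axes, ± SE, means of 3 lines) in DOX and in DMSO libraries, with filled points past an adjusted p of 0.05. Between day 1 and day 3 SPRY1 and DUSP6 lie at 1.44 and 0.97 in DOX libraries, and DUSP5 and ETV4 at -1.34 and -0.82.

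The mean share of counts from mitochondrially encoded genes was 13.1% at 5 hr, 10.96% on day 1, 19.8% on day 3 and 30.7% on day 5. Their part in the members' values was not tested.

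Other genes of the pathway were taken from 4 lists. At day 5, net of sgNS, 5 of 12 other ERK-induced transcripts were called with a positive net change, where 19.2% of all genes were called in either direction. The median net change was 0.15 over the list and 0.00 over all genes tested. The largest were those of FOSL1 (0.76), CCND1 (0.36) and EGR1 (0.28). A positive net change is not a rise within a ZBTB11-guide line. Of the other Sprouty and SPRED genes and their partners, 4 of 6 tested had a positive net change past the threshold (median 0.24, beside the same 19.2%). These were led by SPRED2 (0.34), the ubiquitin ligase CBL (0.33) and NF1 (0.20). DUSP1 was the 1 of 5 other MAP kinase phosphatases called, at -0.11. Among the 7 EGFR- and FGFR-family receptors edgeR called 0, while 2 had an unadjusted p under 0.05, DESeq2 called 0 and limma on log2(TPM + 1) called 3. In the sgNS line, where 17.3% of all genes were called at day 5, FOSL1 fell by 0.56, LIF by 0.26 and CCND1 by 0.23, among 5 of 12 that fell, and 4 of 6 Sprouty and SPRED partners fell, led by SPRED2 and CBL at 0.28 each.

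In sgZBTB11-1 cells at day 5, 1 of 12 other ERK-induced transcripts was called and 0 genes of the other lists, where 1.14% of all genes were called. In sgZBTB11-2 cells 2 of 12 were called and 1 of 5 other MAP kinase phosphatases, where 9% of all genes were called. There edgeR called 0 of the Sprouty and SPRED partners and of the receptors, with 4 of 6 and 1 of 7 at an unadjusted p under 0.05. LIF, a cytokine, fell by 0.24 in sgZBTB11-1 cells, and in sgZBTB11-2 cells the early-response factor EGR1 rose by 0.22, CCND1 (cyclin D1) rose by 0.14 and DUSP1 fell by 0.11. Between day 1 and day 3 of culture 9 of 12 other ERK-induced transcripts fell and 3 rose in DOX libraries, where 82.4% of all genes were called, with a median of -0.56 over the list and 0.03 over all genes, led by FOSL1 (-2.005), PLAUR (-1.74) and MYC (-1.54). In DMSO libraries 9 fell and 3 rose, where 79.8% of all genes were called, with a median of -0.46 over the list and 0.05 over all genes, led by PLAUR (-2.12), FOSL1 (-2.03) and MYC (-1.55). The other MAP kinase phosphatases had medians of -0.77 in DOX and -0.65 in DMSO libraries, led by DUSP7 (-1.21 and -1.47), with 1 rising in each. The medians of these lists, though not every gene, ran in the direction of DUSP5, ETV4 and ETV5 and opposite to DUSP6 and the Sprouty genes. Of the Sprouty and SPRED partners 5 of 6 were called in DOX and 6 of 6 in DMSO libraries, beside the same 82.4% and 79.8%. The receptors had 7 of 7 called in both treatments. Directions within these 2 other lists are not given here.

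Over the 24 group means of log2 CPM, the genes whose pattern was most like that of DUSP6, among 11193 genes with a mean of at least 5 CPM, were TBCEL, MTMR9, SOX9, RASA2 and TPRG1, each with Pearson's r of 0.96. Those most like the mean standardised profile of the 10 members were NET1 (0.91), WDR36 (0.91), NCEH1 (0.90), ARL14EP (0.87) and FGF2 (0.87). That mean joins members that ran together, such as DUSP6 and SPRY1 (r = 0.92), and members that ran against each other, such as SPRY2 and ETV4 (r = -0.92). It therefore need not follow any single member. The group means fall into 4 collection times, and likeness here was not separated from collection time.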

How the data were processed

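The authors deposited expected counts per gene and TPM for 70 libraries (RSEM and GRCh38.p14, per the submitters' processing notes). Aligner, annotation version and strand setting: not given in the sources used here. Reads from overlapping antisense genes therefore cannot be told apart. Of the deposited expected counts 5.13% were not whole, and all were rounded.

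Tests used edgeR 4.0.16 in R 4.3.3 (filterByExpr by group, TMM, robust quasi-likelihood F test) with Benjamini-Hochberg adjustment over all genes tested and a threshold of 0.05. On simulated counts only the net change at day 5 and the change from day 1 to day 3 in DMSO libraries were tried. The trial required recovery of large changes, and recovery of changes as small as the DOX changes of members is not given here. A single model held every library collected at the same time, and for collection time another held every library with the same treatment. CPM values are TMM-scaled over the 70 libraries. Total counts were 12068833 to 20627648, and 0 pairs of libraries were identical. Within groups, the chi-square of counts per degree of freedom was 1.33 to 4.93, so no pair was counted as 1.

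Results were recomputed with DESeq2 1.42.0, with RLE scaling, without the low-count filter, with a replicate block, the gene length trend removed (offsets from a lowess against length derived from counts and TPM), limma 3.58.1 on log2(TPM + 1) for genes with at least 1 TPM in 3 libraries, 1 fit of all libraries, and leaving out each library. Changes on log2(TPM + 1) understate those of low genes, and DUSP4 was below its filter. Leaving out 5 hr or the sgNS term was chosen after seeing the data.

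The members and lists were chosen with earlier results of these data known. All 10 members are described, and other pathway genes come from 4 lists, by name at most the 3 with the largest change past the threshold in a comparison. Promoter sequences and coordinates are RefSeq's for GRCh38.p14. The GGAA motif was added after the longer motifs had been searched.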

Additional observations from a re-analysis of the deposited data

Results flagged for a closer look

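The tests of a difference between guides gave 23 member values. Net of sgNS at 5 hr these were DUSP5 (-0.29), DUSP6 (-0.42), SPRY1 (-0.38), SPRY2 (-0.20), SPRY4 (-0.14), SPRED1 (-0.80), ERRFI1 (-0.36), ETV4 (0.26) and ETV5 (-0.33), as log2 changes. At day 5 they were DUSP5 (0.42), DUSP6 (0.35), SPRY1 (0.37), SPRY4 (0.22), ERRFI1 (0.22) and ETV4 (-0.36). For these 6 transcripts the net change had opposite signs at 5 hr and at day 5, and the difference between the times was not tested. The sgNS term enters both, and DOX changed DUSP6 in sgNS by 0.36 at 5 hr and -0.28 at day 5. Without that term, the mean changes of both ZBTB11 guides at these times were -0.06 and 0.06 for DUSP6. They were -0.01 and 0.12 for SPRY1, -0.08 and 0.05 for ERRFI1, and -0.14 and 0.01 for SPRY4. For DUSP5 they were -0.12 and 0.34, and for ETV4 0.09 and -0.45. At 5 hr the DUSP5 value did not pass with DESeq2 (adjusted p = 0.13), nor ETV4 and ETV5 with limma on log2(TPM + 1) (adjusted p = 0.51 and 0.13). With the length trend removed, SPRY4 at 5 hr was 0.0034 (adjusted p = 0.96). At day 5 the DUSP5 value did not pass with DESeq2 (adjusted p = 0.098), nor ETV4 with limma on log2(TPM + 1) (-0.03, adjusted p = 0.83).

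Between sgZBTB11-2 and sgZBTB11-1 at 5 hr the DOX changes differed for DUSP6 (-0.36), SPRY1 (-0.64), SPRY2 (-0.24), SPRY4 (0.18), SPRED1 (-0.73), ERRFI1 (-0.34), ETV4 (0.26) and ETV5 (-0.27). At days 1, 3 and 5 edgeR called 0 of 10 members between these guides, with 3, 3 and 1 at an unadjusted p under 0.05, and DESeq2 and limma on log2(TPM + 1) called 0.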

How the results depend on the processing

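Of the 37 DOX calls of members, 15 net calls, 8 calls between the ZBTB11 guides, 32 DMSO baseline calls, and 24 and 25 collection-time calls in DOX and DMSO libraries, leaving out each library gave 35 to 38, 14 to 17, 8 to 9, 31 to 34, 23 to 24 and 23 to 26. Without 5 hr, 18 DOX, 6 net, 0 between-guide and 18 baseline calls were left. With the replicate block the counts were 35, 15, 8, 32, 24 and 25. The block rests on a shared number only: same-numbered libraries had a median correlation of deviations of 0.020 at 5 hr, and between -0.0063 and 0.0059 on the later days. The sgNS DMSO libraries of day 1 titled replicates 1 and 2 have library names that end in 2 and 3, so their numbers may not match those of other groups.

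Of 141 single calls, RLE scaling kept all 141, 1 fit of all libraries 139, the block 138, no filter 136, the length trend removed 133 and DESeq2 130, and limma on log2(TPM + 1) kept 108 of 138. Signs turned in these cases, and the cause was not tested. On log2(TPM + 1) ETV4 with DOX in sgNS at 5 hr was 0.084, and the SPRY4 guide difference at 5 hr -0.028. The baseline differences turned for ETV4 at 5 hr (0.020), SPRY4 at day 1 (0.057) and DUSP6 at day 5 (-0.11) in sgZBTB11-1, and for DUSP6 at day 5 in sgZBTB11-2 (-0.041). Collection-time changes turned for DUSP5 at day 1 (0.047 in DOX and 0.0030 in DMSO libraries), SPRY2 at day 5 (-0.16 and -0.14), and DUSP6 (-0.33) and ETV4 (-0.16) at day 5 in DMSO libraries. The net changes at 5 hr turned for SPRY4 with the length trend removed (0.0034) and for ETV5 without the sgNS term (0.047). DUSP4, at 13 to 49 counts, limits what could be detected.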
